A study of Danio rerio with 27 samples.

Results

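YAP and its target genes were followed in whole zebrafish larvae as 10 genes of 39988 entries in a table of read counts: yap1, amotl2a, amotl2b, ctgfa, ctgfb, cyr61, ankrd1a, lats2, ajuba and sdc4. They were taken by gene symbol, and each of the 10 stood on 1 entry. YAP is a transcriptional coactivator that does not bind DNA itself. Hippo pathway kinases phosphorylate it and hold it in the cytoplasm, and without that brake it enters the nucleus, joins TEAD factors and switches on genes for matricellular growth regulators, junction proteins and its own inhibitors. In the mammalian liver YAP is known for its control of organ size and of the choice between hepatocyte and bile duct cell, and its forced activity there leads to enlargement and tumours.

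The larvae belonged to 6 groups, each sequenced as separate libraries from pools of whole animals 21 days after fertilisation. The PY groups carry lf:YAP, labelled as constant YAP overexpression in the liver, together with a further genetic change, and are described as tumour-bearing and wasting. PY TGR5-KO, PY CYP7a1-KO and PY SLC45a2-KO had 5 libraries each, and WT TGR5-KO, WT CYP7a1-KO and WT SLC45a2-KO had 4 each, 27 in all. All 6 groups had been injected as embryos with CRISPR/Cas9 against SLC45a2, a pigmentation gene used as a visible marker. It was the only target in the SLC45a2-KO groups, and the others also received guides against TGR5, a bile acid receptor, or CYP7a1, the first enzyme of classical bile acid synthesis. Injected larvae are usually mosaics of edited and unedited cells, and PY and WT differ in that further change as well as in YAP, so the effects of these 2 changes cannot be told apart. Because RNA came from entire larvae, fewer cells of a type and less RNA per cell cannot be told apart either.

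Libraries held 3377345 to 6238251 counts. For a gene with 0 counts the upper 95% limit is about 3 counts, which corresponds to 0.481 to 0.888 CPM. CPM are counts in every 1e+06 of the library, here before scaling. These limits and all count ratios below cover counting error only. Libraries of the same group correlated at r = 0.912 to 0.951 (Pearson, log2 CPM) in PY and 0.952 to 0.965 in WT, and libraries 1 and 2 of PY CYP7a1-KO stood apart from the rest of their group. They were labelled as separate samples, but nothing says that the pools came from separate clutches, so p-values measure the spread between these pools. The transcripts of the CRISPR targets were no check of the groups, since reads came from 3′ ends and no source used here gives the guide sites: cyp7a1, for example, averaged 12.3 ± 4 CPM (SD, n = 5) in PY CYP7a1-KO and 44.7 ± 9.29 CPM (SD, n = 4) in WT CYP7a1-KO, against 8.57 ± 3.1 CPM (SD, n = 5) in PY SLC45a2-KO and 2.4 ± 1.68 CPM (SD, n = 4) in WT SLC45a2-KO. Hepatocyte markers were present in every group, with a summed level of 10200 to 18200 CPM in PY libraries and 3660 to 9640 CPM in WT libraries over 13 genes.

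Levels below are CPM scaled by TMM factors, and changes are log2 values ± SE with adjusted p-values from edgeR's quasi-likelihood test. Overlap of libraries between groups is given as a description only. The share of all tested genes without such overlap was not counted. Of the 10 genes 8 passed the filter on low counts, about 2.21 CPM in at least 4 libraries, and were tested among 15521 genes. The transcript of yap1 was too low with 107 counts in all, and ankrd1a, which encodes a muscle ankyrin repeat protein, had 0 counts in all 27 libraries. No count was found for 12060 entries, among them markers read below such as epcam. Counts of 0 thus need not mean that the transcript was absent. For ctgfa the filter was passed through WT libraries alone, as 0 PY libraries reached 2.21 CPM, so a difference was built into its being tested.

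The yap1 transcript itself, which encodes the coactivator, was sparse everywhere and was found mainly in PY. Larvae with SLC45a2-KO alone had 10, 10, 7, 29 and 5 yap1 counts in PY libraries 1 to 5, against 0, 0, 3 and 0 in WT libraries 1 to 4. With TGR5-KO there were 2, 3, 4, 9 and 0 yap1 counts in PY, against 0, 1, 0 and 0 in WT. With CYP7a1-KO there were 4, 1, 8, 1 and 6 yap1 counts in PY, against 0, 0, 0 and 4 in WT. All PY SLC45a2-KO libraries lay above all WT SLC45a2-KO libraries, whereas PY and WT libraries overlapped with either knockout. Per sequenced read, yap1 was 18.9 times as frequent in PY as in WT with SLC45a2-KO alone (95% interval 6.16 to 94.1), 15 times with TGR5-KO (2.37 to 627) and 4.7 times with CYP7a1-KO (1.57 to 18.9). Within each WT group a single library held all yap1 counts, and without library 4 of the PY group the first 2 of these ratios became 12 and 9.14.

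With SLC45a2-KO alone yap1 averaged 3.04 ± 2.82 CPM in PY, against 0.156 ± 0.313 CPM in WT (SD, n = 5 and 4, exact permutation p = 0.024, both sides). Library 4 of PY SLC45a2-KO held 29 of the 61 counts of its group, and without it the difference of 2.88 CPM became 1.63 CPM. The PY knockouts stood lower, at 0.896 ± 0.901 CPM in PY TGR5-KO (SD, n = 5, exact permutation p = 0.071 against PY SLC45a2-KO) and 0.888 ± 0.642 CPM in PY CYP7a1-KO (SD, n = 5, exact permutation p = 0.04). Without library 4 of PY SLC45a2-KO the differences of -2.14 CPM with TGR5-KO and -2.15 CPM with CYP7a1-KO shrank to -0.895 and -0.903 CPM. Exact permutation p was 0.095 for PY against WT with TGR5-KO and 0.1 with CYP7a1-KO, and 1 for either knockout in WT. The smallest p for 4 against 4 libraries is 0.029. In WT it was out of reach, since each group held a single library above 0, so these tests could not pass. Over these 7 exact permutation tests the adjusted p was 0.14 for each of the 5 that involve PY, so none passed. With a PY group the smallest exact permutation p is 0.0079, which passes this adjustment only together with other low p-values. Without PY SLC45a2-KO library 5, for example, CYP7a1-KO in PY reached that p with an adjusted p of 0.056. These failures to pass thus say little. By edgeR with no filter yap1 passed in PY against WT with SLC45a2-KO alone (adjusted p = 0.00142) and with TGR5-KO (adjusted p = 0.0489). No source used here describes the 3′ end of the overexpression construct, so it is unknown whether its transcripts were counted as yap1.

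In PY larvae with SLC45a2-KO alone, set against WT larvae with SLC45a2-KO alone, 5 of the 8 tested genes rose: amotl2a, amotl2b, cyr61, ajuba and sdc4. One gene, ctgfa, fell, and ctgfb and lats2 did not pass. Over all tested genes 17.9% rose and 17.7% fell. The median log2 change of the 8 genes was 1.18, beside -0.02 over all 15521. With TGR5-KO, 4 of 8 rose in PY against WT (amotl2a, amotl2b, ctgfb and sdc4) and ctgfa fell, while 11.5% of all tested genes rose and 8.42% fell. With CYP7a1-KO, 3 of 8 rose (amotl2a, amotl2b and cyr61) and ctgfa and ctgfb fell, while 13.3% of all tested genes rose and 9.93% fell. The median change of the 8 was 0.74 with TGR5-KO and 0.49 with CYP7a1-KO, beside 0.016 and 0.005 over all genes. Thus amotl2a and amotl2b rose in all 3 comparisons of PY with WT, each made on its own libraries. The calls of ctgfa are given for completeness, since it was tested only because of its WT libraries.

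**Figure D1:**
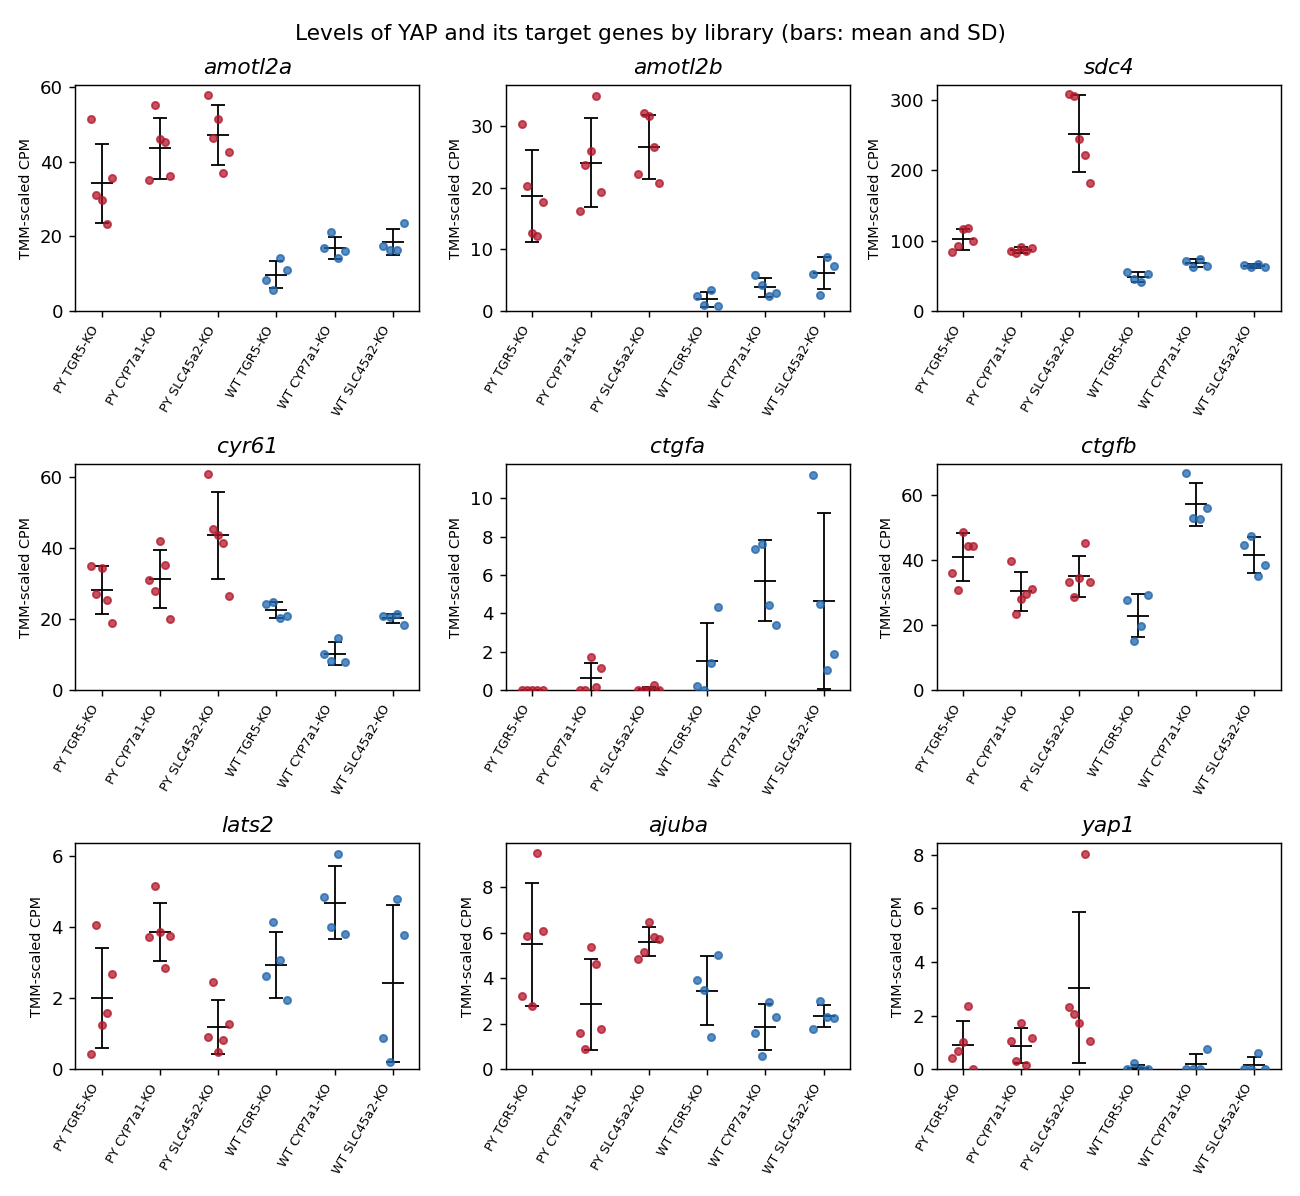
TMM-scaled CPM (vertical axes, which differ between panels) of 9 of the 10 genes in each of 27 libraries, with PY groups in red, WT groups in blue, 1 point per library and bars for the mean and SD. The 15 PY libraries lie above the 12 WT libraries for amotl2b, and PY SLC45a2-KO stands above every other group for sdc4. Ctgfa reaches 1.72 CPM in PY CYP7a1-KO, above the lowest WT SLC45a2-KO library at 1.04 CPM, and at most 0.276 CPM in PY SLC45a2-KO. Ankrd1a, at 0 in every library, is left out.

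The angiomotin-like genes amotl2a and amotl2b rose in PY over WT with each knockout, with no overlap of libraries within a knockout. Their products are junction scaffolds that bind YAP and hold it out of the nucleus, and in mammalian cells the gene is itself switched on by YAP. With SLC45a2-KO alone, amotl2b stood at 22.2, 32.0, 31.6, 26.5 and 20.8 CPM in PY libraries 1 to 5, against 6.04, 2.57, 8.75 and 7.37 CPM in WT libraries 1 to 4. With TGR5-KO, amotl2b stood at 30.3, 20.3, 12.6, 12.1 and 17.7 CPM in PY, against 2.39, 0.922, 3.46 and 0.871 CPM in WT. With CYP7a1-KO, amotl2b stood at 16.2, 23.6, 25.9, 34.9 and 19.3 CPM in PY, against 5.76, 4.21, 2.46 and 2.85 CPM in WT. No PY library fell as low as the highest WT library, 8.75 CPM. The rise was 2.10 ± 0.31 with SLC45a2-KO alone (4.28-fold, adjusted p = 6.45e-07), 3.25 ± 0.37 with TGR5-KO (9.53-fold, adjusted p = 7.49e-09) and 2.68 ± 0.33 with CYP7a1-KO (6.4-fold, adjusted p = 3.39e-08).

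Its paralog amotl2a had the same order of group means, PY SLC45a2-KO, PY CYP7a1-KO, PY TGR5-KO, WT SLC45a2-KO, WT CYP7a1-KO and WT TGR5-KO from high to low, with the 3 PY groups overlapping each other. It stood at 58.0, 46.3, 51.5, 37.0 and 42.6 CPM in PY SLC45a2-KO, against 17.4, 16.3, 16.5 and 23.6 CPM in WT SLC45a2-KO. With TGR5-KO the values of amotl2a were 51.5, 31.2, 29.8, 23.4 and 35.6 CPM in PY, against 8.26, 5.76, 14.3 and 10.9 CPM in WT. With CYP7a1-KO they were 35.0, 55.1, 46.1, 45.3 and 36.3 CPM in PY, against 16.8, 21.1, 14.1 and 16 CPM in WT. PY and WT did not overlap within any knockout, and over all 27 libraries only the lowest PY TGR5-KO library (23.4 CPM) lay below the highest WT SLC45a2-KO library (23.6 CPM). The rise of amotl2a was 1.35 ± 0.21 with SLC45a2-KO alone (adjusted p = 9.78e-07), 1.80 ± 0.22 with TGR5-KO (adjusted p = 2.88e-08) and 1.36 ± 0.21 with CYP7a1-KO (adjusted p = 2.35e-06).

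Counts of the paralogs were also set against each other within a library. The share of amotl2b in the counts of amotl2a and amotl2b together averaged 36.2% ± 5.88 in PY, against 24.4% ± 8.66 in WT, with SLC45a2-KO alone (SD, n = 5 and 4). With TGR5-KO this share was 34.7% ± 3.72 in PY and 15.8% ± 6.62 in WT, and with CYP7a1-KO it was 35.2% ± 5.28 in PY and 18.1% ± 5.01 in WT (SD, n = 5 and 4). The amotl2b share was thus alike in the 3 PY groups and lower on average in each WT group, overlapping with PY libraries for SLC45a2-KO alone. No test of these shares was made. No source used here says how reads common to both paralogs were counted, and amotl2a overlaps 2 other annotated genes in the GRCz12tu RefSeq assembly.

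Sdc4 encodes syndecan-4, a cell surface heparan sulfate proteoglycan of focal adhesions, and set PY SLC45a2-KO apart from every other group. With SLC45a2-KO alone it stood at 308, 306, 244, 222 and 182 CPM in PY libraries 1 to 5, against 64.9, 62.3, 67.3 and 62.0 CPM in WT libraries 1 to 4. With TGR5-KO sdc4 stood at 83.5, 92.6, 117, 118 and 99.6 CPM in PY, against 56.1, 45.0, 41.0 and 52.3 CPM in WT. With CYP7a1-KO sdc4 stood at 85.4, 82.1, 91.6, 85.3 and 89.5 CPM in PY, against 70.9, 63.0, 74.7 and 63.8 CPM in WT. PY lay above WT in every library within each knockout, and PY SLC45a2-KO lay above all libraries of both PY knockouts. The rise of sdc4 in PY over WT was 1.98 ± 0.15 with SLC45a2-KO alone (3.94-fold, adjusted p = 1.67e-15) and 1.07 ± 0.15 with TGR5-KO (2.1-fold, adjusted p = 2.41e-07). With CYP7a1-KO the difference was 0.35 ± 0.14 and did not pass (adjusted p = 0.0689, 95% interval 0.06 to 0.64).

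Cyr61 (renamed ccn1) encodes a matricellular protein of the CCN family that is secreted and is a standard readout of YAP activity in mammalian cells. It stood at 60.8, 45.3, 43.5, 41.2 and 26.5 CPM in PY SLC45a2-KO, against 20.8, 20.5, 21.3 and 18.3 CPM in WT SLC45a2-KO. With TGR5-KO cyr61 stood at 34.8, 27.1, 34.3, 25.2 and 18.9 CPM in PY, against 24.1, 24.9, 20.2 and 20.9 CPM in WT. With CYP7a1-KO it stood at 31.0, 27.9, 42.0, 35.1 and 19.9 CPM in PY, against 10.1, 8.22, 14.7 and 7.98 CPM in WT. PY lay above WT without overlap with SLC45a2-KO alone and with CYP7a1-KO, whereas library 5 of PY TGR5-KO lay below all WT TGR5-KO libraries. The rise of cyr61 was 1.1 ± 0.21 with SLC45a2-KO alone (adjusted p = 4.19e-05) and 1.59 ± 0.23 with CYP7a1-KO (adjusted p = 3.14e-07). With TGR5-KO the difference was 0.32 ± 0.21 and did not pass (adjusted p = 0.312). In RefSeq the older symbol cyr61 is listed for both ccn1 and ccn1l2, and the table has a separate entry cyr61l2.

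The paralogs ctgfa and ctgfb (renamed ccn2a and ccn2b) encode connective tissue growth factor, another secreted CCN protein and a standard YAP target in mammals, and the paralogs differed from each other. PY libraries 1 to 5 with SLC45a2-KO alone had 0, 0, 0, 1 and 0 ctgfa counts, against 50, 21, 5 and 10 in WT libraries 1 to 4. With TGR5-KO there were 0 ctgfa counts in all 5 PY libraries, against 1, 0, 7 and 20 in WT. With CYP7a1-KO there were 0, 0, 8, 1 and 6 ctgfa counts in PY, against 32, 38, 27 and 18 in WT. WT libraries varied widely, and WT SLC45a2-KO library 1 held 50 of the 86 counts of its group. PY and WT did not overlap with SLC45a2-KO alone or with CYP7a1-KO, and with TGR5-KO the overlap was 1 WT library at 0.

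Because ctgfa was tested only through its WT libraries, the adjusted p-values in this paragraph are no support for a fall. Per sequenced read, ctgfa was 0.0108 times as frequent in PY SLC45a2-KO as in WT SLC45a2-KO (95% counting interval 0.00027 to 0.0618, adjusted p of the fit = 9.09e-05), and 0.0197 times without WT library 1. With the limit of about 3 counts for the 0 in PY TGR5-KO, ctgfa was at least 11.2-fold lower there than in WT TGR5-KO (adjusted p of the fit = 0.00451). This bound takes the WT counts as exact. Most of these WT counts, 20 of 28, came from library 4, and the bound dropped to 4.23-fold once it was left out (adjusted p = 0.0442). In PY CYP7a1-KO it was lower than in WT CYP7a1-KO by -3.08 ± 0.83 (adjusted p = 0.00558), and by -3.82 without PY CYP7a1-KO library 3, which held 8 of 15 counts. The ctgfa gene overlaps 1 long noncoding RNA gene in the GRCz12tu RefSeq assembly, and counts of the paralogs ctgfa and ctgfb could have been split by the counting. With SLC45a2-KO alone the ctgfa share in the counts of both paralogs was 0.121% ± 0.271 in PY, against 9.06% ± 7.69 in WT (SD, n = 5 and 4).

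Ctgfb differed in direction with the knockout. With SLC45a2-KO alone ctgfb stood at 33.3, 28.5, 34.3, 45.3 and 33.1 CPM in PY, against 44.7, 47.3, 35.2 and 38.4 CPM in WT. With TGR5-KO it stood at 35.9, 30.7, 48.7, 44.2 and 44.4 CPM in PY, against 27.6, 15.2, 19.8 and 29.2 CPM in WT. With CYP7a1-KO it stood at 39.8, 23.3, 28.1, 29.4 and 31.0 CPM in PY, against 66.8, 52.8, 52.4 and 56.0 CPM in WT. The means of the 3 PY groups lay at 30.3 to 40.8 CPM, below WT CYP7a1-KO at 57.0 CPM and above WT TGR5-KO at 22.9 CPM. Ctgfb rose by 0.83 ± 0.19 in PY over WT with TGR5-KO (adjusted p = 0.000784), was lower by -0.91 ± 0.18 with CYP7a1-KO (adjusted p = 0.000105) and differed by -0.25 ± 0.18 with SLC45a2-KO alone (adjusted p = 0.291, 95% interval -0.61 to 0.11).

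The remaining genes, ajuba and lats2, encode a regulator of Hippo kinases and a Hippo kinase, and both stood at low levels. Ajuba encodes a LIM domain adaptor of cell junctions that restrains LATS kinases. It stood at 4.85, 5.13, 6.47, 5.80 and 5.72 CPM in PY SLC45a2-KO, against 1.79, 3.00, 2.29 and 2.27 CPM in WT SLC45a2-KO, with no overlap. The rise was 1.25 ± 0.46 (adjusted p = 0.0287). This call was lost without PY SLC45a2-KO library 3 (1.19, adjusted p = 0.0523) or without WT SLC45a2-KO library 1 (1.14, adjusted p = 0.0795), 3 (1.24, adjusted p = 0.0604) or 4 (1.23, adjusted p = 0.0636). With TGR5-KO ajuba stood at 3.20, 5.87, 2.78, 9.47 and 6.06 CPM in PY, against 3.91, 3.46, 1.43 and 5.01 CPM in WT. With CYP7a1-KO it stood at 1.59, 0.909, 5.36, 4.63 and 1.77 CPM in PY, against 1.61, 0.602, 2.95 and 2.28 CPM in WT. Both pairs overlapped, with differences of 0.66 ± 0.45 (adjusted p = 0.32) and 0.63 ± 0.48 (adjusted p = 0.369) that did not pass.

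Lats2 encodes the kinase that phosphorylates YAP directly, and in mammals it is also a YAP target, part of a negative feedback. It stood at 0.924, 2.46, 0.498, 0.829 and 1.27 CPM in PY SLC45a2-KO, against 0.895, 0.214, 4.79 and 3.78 CPM in WT SLC45a2-KO. With TGR5-KO lats2 stood at 0.427, 4.07, 1.26, 1.58 and 2.67 CPM in PY, against 2.61, 4.15, 3.06 and 1.96 CPM in WT. With CYP7a1-KO it stood at 3.71, 5.15, 3.86, 2.85 and 3.75 CPM in PY, against 4.84, 4.01, 6.06 and 3.80 CPM in WT. PY and WT overlapped for lats2 in all 3 comparisons, and WT SLC45a2-KO split into a pair of libraries under 1 CPM and a pair over 3 CPM. The differences of -0.98 ± 0.57, -0.55 ± 0.54 and -0.29 ± 0.50 did not pass (adjusted p = 0.183, 0.521 and 0.724).

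**Figure D2:**
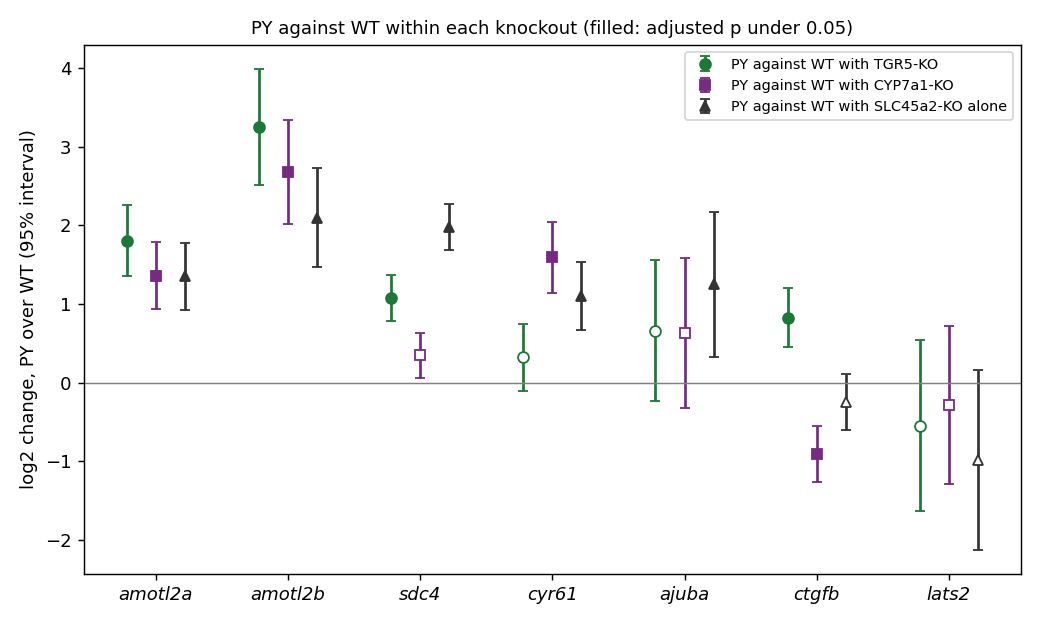
Log2 change of PY over WT with its 95% interval (vertical axis) for 7 of the 8 tested genes, drawn for TGR5-KO, CYP7a1-KO and SLC45a2-KO alone, with filled symbols where the adjusted p is under 0.05. The amotl2a and amotl2b intervals lie above 0 in all 3 comparisons, from 0.93 to 3.99, and ctgfb lies above 0 with TGR5-KO and below 0 with CYP7a1-KO; ctgfa is left out because of its counts of 0 in PY.

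Within PY, TGR5-KO larvae were set against larvae with SLC45a2-KO alone. Of the 8 tested genes sdc4 and cyr61 fell and 0 rose, while 6.34% of all tested genes rose and 5.01% fell. The median change of the 8 was -0.48, beside 0.025 over all genes. Sdc4 fell by 1.30 ± 0.13 on the log2 scale, to 102 ± 15.2 CPM in PY TGR5-KO, against 252 ± 54.6 CPM in PY SLC45a2-KO (SD, n = 5 each, adjusted p = 1.13e-09), with no overlap of libraries. Cyr61 fell by 0.63 ± 0.20, to 28.1 ± 6.66 CPM in PY TGR5-KO, against 43.5 ± 12.2 CPM in PY SLC45a2-KO (SD, n = 5 each, adjusted p = 0.0271), and the groups overlapped. The cyr61 call was lost without PY TGR5-KO library 5 (-0.52, adjusted p = 0.0913), PY SLC45a2-KO library 1 (-0.50, adjusted p = 0.106) or PY SLC45a2-KO library 2 (-0.62, adjusted p = 0.0502). Without PY TGR5-KO library 1, amotl2a also passed, at -0.66 (adjusted p = 0.0239), against -0.45 ± 0.19 with all libraries (adjusted p = 0.116). Amotl2b differed by -0.51 ± 0.27 (adjusted p = 0.233), ctgfb by 0.23 ± 0.17 (adjusted p = 0.444), ajuba by -0.04 ± 0.41 (adjusted p = 0.975) and lats2 by 0.70 ± 0.56 (adjusted p = 0.483). Ctgfa had 0 counts in PY TGR5-KO and 1 in PY SLC45a2-KO, so no change was detectable at this depth.

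With CYP7a1-KO in PY, again set against SLC45a2-KO alone, sdc4 fell and lats2 rose, while 7.49% of all tested genes rose and 5.9% fell. The median change of the 8 was -0.17, beside 0.02 over all genes. Sdc4 fell by 1.54 ± 0.13, to 86.8 ± 3.76 CPM in PY CYP7a1-KO, against 252 ± 54.6 CPM in PY SLC45a2-KO (SD, n = 5 each, adjusted p = 1.15e-11). Lats2 rose by 1.63 ± 0.54, with 3.86 ± 0.824 CPM in PY CYP7a1-KO and 1.2 ± 0.759 CPM in PY SLC45a2-KO (SD, n = 5 each, adjusted p = 0.034) and no overlap. The lats2 call rested on 84 and 27 counts and was lost when any of 6 single libraries was left out, namely libraries 2 and 3 of PY CYP7a1-KO and libraries 1, 3, 4 and 5 of PY SLC45a2-KO (1.44 to 1.63, adjusted p = 0.0549 to 0.0914). It was lost as well without libraries 1 and 2 of PY CYP7a1-KO together (1.47, adjusted p = 0.101). Cyr61 differed by -0.48 ± 0.19 (adjusted p = 0.0977) and ajuba by -0.92 ± 0.42 (adjusted p = 0.147). Cyr61 passed without PY CYP7a1-KO library 3 (-0.63, adjusted p = 0.0378) or PY SLC45a2-KO library 5 (-0.62, adjusted p = 0.0263). Amotl2a at -0.12 ± 0.19, amotl2b at -0.14 ± 0.26 and ctgfb at -0.20 ± 0.17 did not pass (adjusted p = 0.757, 0.788 and 0.504). Ctgfa had 15 counts in PY CYP7a1-KO, all from libraries 3 to 5, and 1 count in PY SLC45a2-KO, a ratio of 14.6 (95% counting interval 2.24 to 613) that did not pass in the fit (adjusted p = 0.117) and passed when no filter was applied (adjusted p = 0.0409).

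The 5 PY CYP7a1-KO and 5 PY TGR5-KO libraries were compared with the same 5 PY SLC45a2-KO libraries, so the falls of sdc4 in both are not independent of each other. A group of immediate early genes, which respond within minutes to stress or handling, was read beside sdc4. Their summed level over 8 genes was 394 to 531 CPM in PY TGR5-KO, 467 to 650 CPM in PY CYP7a1-KO and 823 to 936 CPM in PY SLC45a2-KO. It was 259 to 316 CPM in WT TGR5-KO, 175 to 217 CPM in WT CYP7a1-KO and 230 to 254 CPM in WT SLC45a2-KO. Of 7 tested immediate early genes 6 fell with TGR5-KO in PY, 5 fell with CYP7a1-KO in PY, and all 7 rose in PY over WT with SLC45a2-KO alone. In PY over WT 5 of the 7 rose with TGR5-KO, and all 7 rose with CYP7a1-KO (median 1.79), where sdc4 did not pass. Over all tested genes 5.01% fell with TGR5-KO in PY and 5.9% with CYP7a1-KO in PY. In PY over WT 17.9% of them rose with SLC45a2-KO alone, 11.5% with TGR5-KO and 13.3% with CYP7a1-KO. Cyr61 also rose in PY over WT with SLC45a2-KO alone and with CYP7a1-KO, and fell with TGR5-KO in PY. It did not pass in PY over WT with TGR5-KO, nor for CYP7a1-KO within PY. The part of the immediate early genes in the sdc4 and cyr61 results was not tested.

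Within WT, TGR5-KO larvae were set against larvae with SLC45a2-KO alone. Amotl2a, amotl2b and ctgfb fell and 0 of the 8 rose, while 3.1% of all tested genes rose and 3.4% fell, and the median change of the 8 was -0.62 beside -0.01 over all genes. Amotl2b was at 1.91 ± 1.25 CPM in WT TGR5-KO and 6.18 ± 2.65 CPM in WT SLC45a2-KO (SD, n = 4 each), a fall of 1.66 ± 0.40 (adjusted p = 0.00583) from 36 and 120 counts with overlapping libraries. Amotl2a fell by 0.91 ± 0.24, to 9.79 ± 3.64 CPM in WT TGR5-KO, against 18.4 ± 3.49 CPM in WT SLC45a2-KO (SD, n = 4 each, adjusted p = 0.0101) with no overlap. The amotl2a call was lost without WT TGR5-KO library 2 (-0.74, adjusted p = 0.0646) or WT SLC45a2-KO library 4 (-0.77, adjusted p = 0.0626). Ctgfb fell by 0.85 ± 0.19, to 22.9 ± 6.59 CPM in WT TGR5-KO, against 41.4 ± 5.58 CPM in WT SLC45a2-KO (SD, n = 4 each, adjusted p = 0.00274), again with no overlap. Sdc4 was lower in all 4 WT TGR5-KO libraries, by -0.40 ± 0.15, which did not pass with all groups in the fit (adjusted p = 0.111) and passed in a fit of these 2 groups (adjusted p = 0.0328). Ctgfa had 28 counts in WT TGR5-KO and 86 in WT SLC45a2-KO (-1.60 ± 0.82, adjusted p = 0.292), and cyr61, ajuba and lats2 differed by 0.15 ± 0.23, 0.55 ± 0.49 and 0.26 ± 0.56 (adjusted p = 0.795, 0.612 and 0.871).

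With CYP7a1-KO in WT, cyr61 fell and 0 of the 8 rose, while 4.14% of all tested genes rose and 7.48% fell. The median change of the 8 was -0.02, beside 0.02 over all genes. Cyr61 fell by 0.97 ± 0.24, to 10.3 ± 3.14 CPM in WT CYP7a1-KO, against 20.2 ± 1.3 CPM in WT SLC45a2-KO (SD, n = 4 each, adjusted p = 0.00346), with no overlap. Ctgfb stood higher in all 4 WT CYP7a1-KO libraries by 0.46 ± 0.19, which did not pass with all groups in the fit (adjusted p = 0.0995) and passed in a fit of these 2 groups (adjusted p = 0.0131). Amotl2b differed by -0.72 ± 0.36 (adjusted p = 0.212), amotl2a by -0.12 ± 0.22 (adjusted p = 0.802) and sdc4 by 0.09 ± 0.15 (adjusted p = 0.791). Ctgfa, ajuba and lats2 differed by 0.30 ± 0.75, -0.30 ± 0.51 and 0.93 ± 0.54 (adjusted p = 0.865, 0.785 and 0.298).

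**Figure D3:**
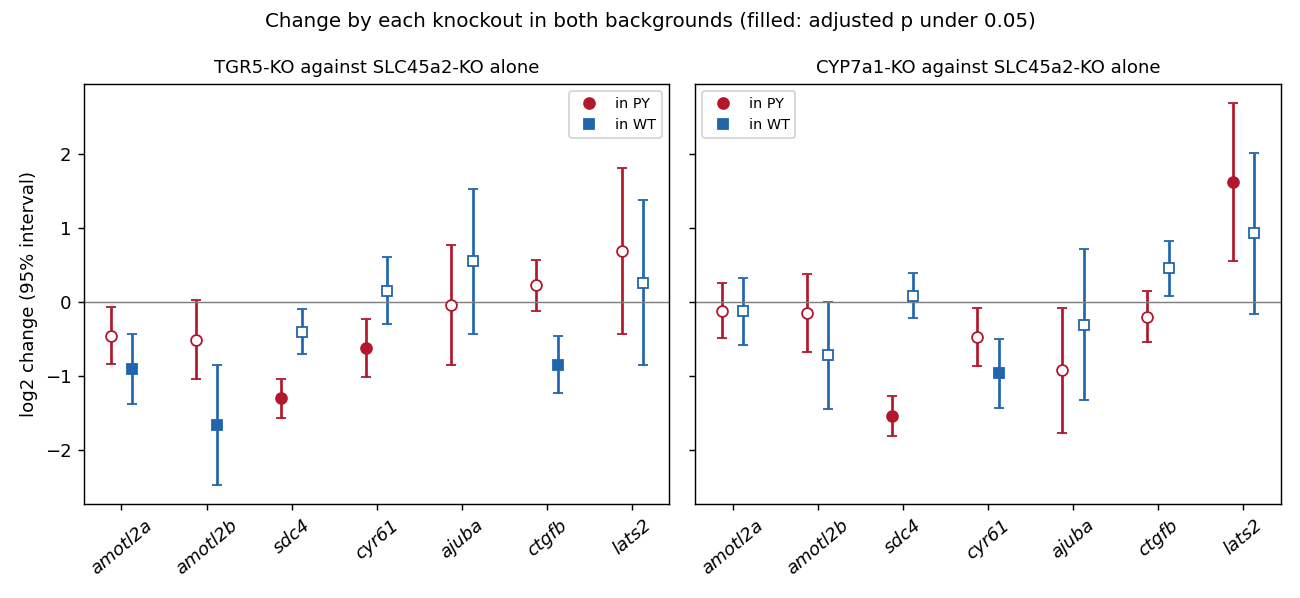
Log2 change with its 95% interval (vertical axis) for 7 of the 8 tested genes with TGR5-KO (left) and CYP7a1-KO (right), in PY (red circles) and in WT (blue squares), each over SLC45a2-KO alone in the same background; filled symbols have an adjusted p under 0.05. Sdc4 lies at -1.30 and -1.54 in PY, beside -0.40 and 0.09 in WT, and ctgfb with TGR5-KO lies at 0.23 in PY, beside -0.85 in WT.

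Whether a knockout acted differently in PY and WT was asked with an interaction, the change in PY minus the change in WT. For TGR5-KO, 1 of 8 tested genes had a higher change in PY (ctgfb) and 1 a lower change (sdc4), while 3.94% of all tested genes were higher and 2.76% lower. Ctgfb differed by 1.07 ± 0.26 (adjusted p = 0.00484), from 0.23 in PY and -0.85 in WT, and sdc4 by -0.91 ± 0.20 (adjusted p = 0.00233), from -1.30 in PY and -0.40 in WT. The falls of amotl2a and amotl2b in WT were not shown to differ from their changes in PY, neither of which passed, with interactions of 0.45 ± 0.30 (adjusted p = 0.441) and 1.16 ± 0.48 (adjusted p = 0.154, 95% interval 0.18 to 2.13). For cyr61 the interaction was -0.78 ± 0.30 (adjusted p = 0.109), and without PY SLC45a2-KO library 5 it passed at -0.92 (adjusted p = 0.0448). The interactions of ajuba, -0.59 ± 0.63, and lats2, 0.43 ± 0.78, did not pass (adjusted p = 0.677 and 0.824). No value is given for ctgfa, which had 0 and 1 counts in the PY groups, and yap1 and ankrd1a were not tested for interactions.

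For CYP7a1-KO sdc4 alone passed, at -1.63 ± 0.20 (adjusted p = 7.84e-08), while 10.8% of all tested genes were higher and 6.98% lower. The ctgfb interaction was -0.66 ± 0.25 (adjusted p = 0.0613). It passed with DESeq2 (-0.69, adjusted p = 0.0427), in a fit of the 4 groups alone (-0.67, adjusted p = 0.0478), without libraries 1 and 2 of PY CYP7a1-KO together (-0.70, adjusted p = 0.0487), without library 1 alone (-0.78, adjusted p = 0.0211) and without PY SLC45a2-KO library 2 (-0.74, adjusted p = 0.0414). The remaining genes that did not pass had interactions of 0.01 ± 0.29 for amotl2a, 0.58 ± 0.45 for amotl2b, 0.49 ± 0.30 for cyr61, 0.69 ± 0.76 for lats2, -0.62 ± 0.66 for ajuba and 2.89 ± 1.53 for ctgfa (adjusted p = 0.205 to 0.988), the last 3 from low counts.

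Other genes of the Hippo pathway were counted in lists that were chosen with earlier results of these data known, and the 10 genes themselves were left out of the counts. In PY over WT with SLC45a2-KO alone, 7 of 19 tested upstream kinases and adaptors rose and 1 fell (median 0.50). The 4 with the smallest p were taok1b (1.27 ± 0.18, adjusted p = 1.98e-07) and map4k4 (-0.87 ± 0.13, adjusted p = 6.96e-07), kinases that feed into the Hippo core, wwc1 (1.41 ± 0.23, adjusted p = 2.21e-06), the Kibra scaffold, and sav1 (0.69 ± 0.22, adjusted p = 0.0111), the Salvador adaptor. The other 11 of the 19 did not pass, and over all tested genes 17.9% rose and 17.7% fell.

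Among nuclear partners of YAP 4 of 6 rose and 0 fell (median 0.52). These were tead3b (1.08 ± 0.17, adjusted p = 8.72e-07) and tead1a (1.06 ± 0.23, adjusted p = 0.000168), DNA-binding TEAD factors, wwtr1 (0.53 ± 0.16, adjusted p = 0.00623), which encodes the YAP relative TAZ, and vgll4b (0.50 ± 0.18, adjusted p = 0.0235), whose product competes with YAP for TEAD. With SLC45a2-KO alone the wwtr1 transcript averaged 41 ± 3.84 CPM in PY, against 28.3 ± 2.26 CPM in WT (SD, n = 5 and 4). With TGR5-KO 2 of the 6 rose in PY over WT, with CYP7a1-KO 0 of 6, and 1 of 6 fell with each knockout in PY, tead3b with TGR5-KO (-0.51 ± 0.15, adjusted p = 0.021) and tead1a with CYP7a1-KO (-0.64 ± 0.21, adjusted p = 0.0324). Over all tested genes 11.5% rose in PY over WT with TGR5-KO and 13.3% with CYP7a1-KO. Within PY 5.01% of them fell with TGR5-KO and 5.9% with CYP7a1-KO.

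Of 14 tested junction and polarity regulators 5 rose and 2 fell with SLC45a2-KO alone (median 0.55), led by ptpn21 (1.94 ± 0.20, adjusted p = 3.39e-11), a junctional phosphatase, mpp5a (1.20 ± 0.22, adjusted p = 1.52e-05) and crb2a (1.64 ± 0.44, adjusted p = 0.00244) of the Crumbs complex, and wtip (2.37 ± 0.48, adjusted p = 8.6e-05), an ajuba relative. Of 16 tested orthologs of a human YAP and TAZ target signature 7 rose and 2 fell (median 0.24), among them crim1 (0.77 ± 0.14, adjusted p = 1.41e-05), ccdc80 (0.82 ± 0.15, adjusted p = 1.91e-05), f3b (1.84 ± 0.40, adjusted p = 0.000212), a tissue factor gene, and gadd45aa (1.40 ± 0.30, adjusted p = 0.000216), a stress-response gene. Among 9 tested paralogs and relatives of the 10 genes, 4 rose and 1 fell (median 0.53), with sdc2 at 0.82 ± 0.13 (adjusted p = 2.51e-06) and cyr61l2 at 2.10 ± 0.56 (adjusted p = 0.00252). In each of these 5 lists the median lay above that of all tested genes, -0.02, and the share that rose was above 17.9%. This is a description and not separate support, because the lists were chosen with earlier results known. They also share genes, namely wwtr1, amot, lats1, wtip, limd1a and limd1b.

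**Figure D4:**
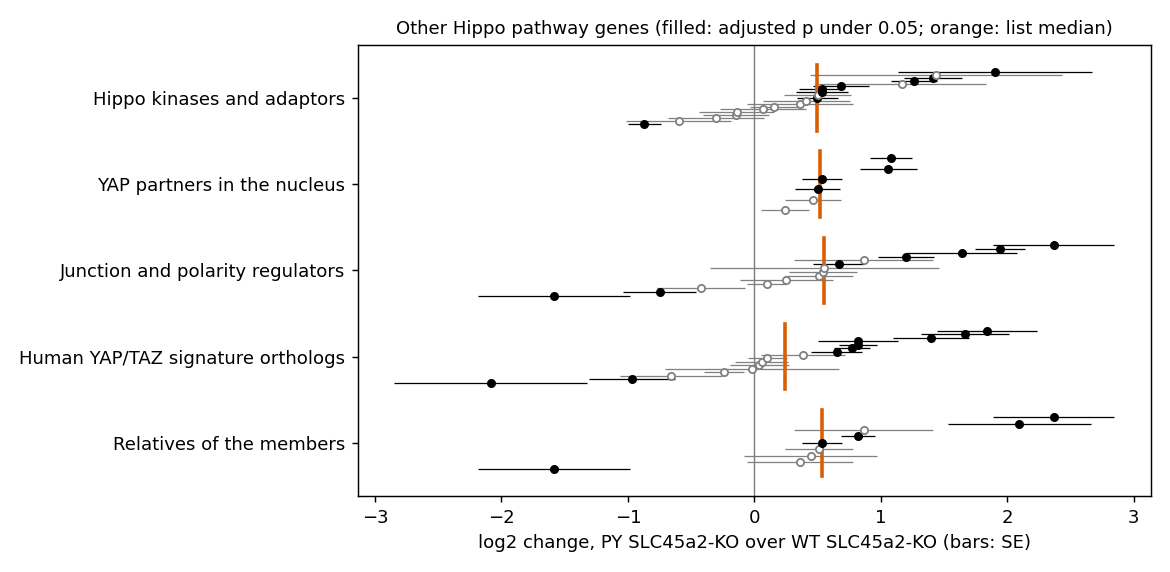
Log2 change of PY SLC45a2-KO over WT SLC45a2-KO with its SE (horizontal axis) for the tested genes of 5 pathway lists, with the 10 genes left out, filled points for an adjusted p under 0.05 and an orange line at each list's median. The medians lie between 0.24 and 0.55, and wwtr1, amot, lats1, wtip, limd1a and limd1b are drawn in more than 1 list.

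The same lists were counted in the other comparisons. In PY over WT with TGR5-KO, 2 of 19 kinases and adaptors rose and 1 fell, 2 of 14 junction regulators and 2 of 16 signature orthologs rose, and 0 of 9 relatives passed. These shares lie near the 11.5% of all tested genes that rose in this comparison, and that of the nuclear partners, 2 of 6, lay above it. With CYP7a1-KO 2 of 19 kinases and adaptors and 3 of 14 junction regulators rose, 1 of 16 signature orthologs and 1 of 9 relatives fell, and 13.3% of all tested genes rose and 9.93% fell. With TGR5-KO in PY 2 of 14 junction regulators, 3 of 16 signature orthologs and 2 of 19 kinases and adaptors fell, and 1 signature ortholog and 1 kinase or adaptor rose, beside 5.01% of all tested genes lower and 6.34% higher. With CYP7a1-KO in PY 3 of 14, 3 of 16 and 2 of 19 of these lists fell, and again 1 signature ortholog and 1 kinase or adaptor rose, beside 5.9% lower and 7.49% higher over all tested genes. None of the 9 relatives passed in either. The ptpn21 change, for example, was -1.12 ± 0.18 with TGR5-KO (adjusted p = 1.16e-05) and -0.97 ± 0.18 with CYP7a1-KO (adjusted p = 0.000104), and f3b fell by 1.64 ± 0.37 (adjusted p = 0.00159) and by 1.72 ± 0.37 (adjusted p = 0.00081). Within WT 1 of 16 signature orthologs rose with TGR5-KO, beside 3.1% of all tested genes, and nothing else in the lists passed. With CYP7a1-KO in WT 3 of 16 signature orthologs, 1 of 14 junction regulators and 1 of 9 relatives rose and 0 fell. Over all tested genes 4.14% rose and 7.48% fell there. For the TGR5-KO interaction 2 of 16 signature orthologs and 1 of 14 junction regulators were lower, beside 2.76% of all tested genes. For the CYP7a1-KO interaction 5 of 16 signature orthologs, 2 of 9 relatives and 1 of 14 junction regulators were lower. So was 1 of 6 nuclear partners, and of 19 kinases and adaptors 1 was higher and 1 lower. Over all tested genes 10.8% were higher and 6.98% lower in this interaction. The paralog of the undetected ankrd1a, ankrd1b, chosen here after its values were seen, averaged 8.65 ± 2.35 CPM in WT CYP7a1-KO and 1.64 ± 0.65 CPM in WT SLC45a2-KO (SD, n = 4 each), a rise of 2.37 ± 0.52 (adjusted p = 0.00114). In PY ankrd1b stood at 0.927 ± 0.879 CPM in PY CYP7a1-KO and 2.24 ± 0.392 CPM in PY SLC45a2-KO (SD, n = 5 each), and its interaction was -3.61 ± 0.74 (adjusted p = 0.000411).

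Cell type markers were read beside these results, because larvae can differ in tissue make-up. In PY over WT with SLC45a2-KO alone, where 17.9% of all tested genes rose and 17.7% fell, 8 of 13 hepatocyte markers rose and 1 fell, 3 of 4 tested biliary markers rose, 4 of 8 endothelial markers rose, and 1 of 3 macrophage markers rose. Over the same comparison 7 of 8 cartilage and bone markers, 6 of 8 fibroblast and tendon markers, 6 of 10 skeletal muscle markers and 3 of 7 heart muscle markers fell, 2 skeletal and 1 heart muscle marker rose, and of 7 epidermal markers 1 rose and 1 fell. The summed biliary level over 7 genes was 276 to 705 CPM in PY libraries and 71.2 to 108 CPM in WT libraries, with epcam, krt18a.1 and her6 listed at 0 in every group. The summed cartilage and bone level over 10 genes was 235 to 286 CPM in PY SLC45a2-KO and 708 to 862 CPM in WT SLC45a2-KO, with col2a1a and bglap at 0 in both. For fibroblast and tendon markers it was 1260 to 2310 CPM in PY SLC45a2-KO and 3270 to 3530 CPM in WT SLC45a2-KO, with col1a1a at 0 in both. The 5 genes that rose in this comparison, amotl2a, amotl2b, cyr61, ajuba and sdc4, did so beside hepatocyte, biliary, endothelial and immediate early genes. Ctgfa, tested only through its WT libraries, was lower beside skeletal and connective tissue markers. Ctgfb and lats2 did not pass.

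Marker counts were made in the other comparisons too. In PY over WT with TGR5-KO, where ctgfa was lower too, 11.5% of all tested genes rose and 8.42% fell. Of the markers, 7 of 13 hepatocyte and 2 of 4 biliary rose. Lower were 2 hepatocyte, 3 of 8 cartilage and bone and 1 of 8 fibroblast and tendon markers. The summed fibroblast and tendon level was 2740 to 3750 CPM in PY TGR5-KO and 2980 to 3610 CPM in WT TGR5-KO. Of 10 skeletal muscle markers 4 rose and 1 fell, and of 7 epidermal markers 2 rose and 1 fell. With CYP7a1-KO in PY over WT 13.3% of all tested genes rose and 9.93% fell. Of the markers, 11 of 13 hepatocyte and 2 of 4 biliary rose. Lower were 5 of 8 cartilage and bone and 4 of 8 fibroblast and tendon markers. Of 10 skeletal muscle markers 1 rose and 3 fell, and of 7 epidermal markers 1 rose and 3 fell. Among 7 heart muscle markers 2 rose, and 1 of 8 endothelial markers fell. Within PY, where sdc4 fell with both knockouts, 6.34% of all tested genes rose and 5.01% fell with TGR5-KO. Of the markers, 7 of 13 hepatocyte, 2 of 4 biliary and 1 of 8 endothelial fell. Higher with TGR5-KO were 6 of 8 cartilage and bone, 6 of 8 fibroblast and tendon and 7 of 10 skeletal muscle markers. So were 4 of 7 epidermal and 1 of 7 heart muscle markers. With CYP7a1-KO in PY 7.49% of all tested genes rose and 5.9% fell. Of 13 hepatocyte markers 5 fell and 2 rose, and 3 of 8 endothelial markers fell. Higher were 6 of 8 cartilage and bone, 5 of 8 fibroblast and tendon and 3 of 7 epidermal markers. Of 10 skeletal muscle markers 6 rose and 1 fell. Lower too were 2 of 7 heart muscle, 1 of 4 biliary and 1 of 3 macrophage markers. The summed cartilage and bone level was 517 to 640 CPM in PY TGR5-KO and 334 to 670 CPM in PY CYP7a1-KO, against the 235 to 286 CPM in PY SLC45a2-KO. Within WT 4.14% of all tested genes rose and 7.48% fell with CYP7a1-KO, where cyr61 fell. Of 13 hepatocyte markers 9 fell. Their summed level was 3660 to 5040 CPM in WT CYP7a1-KO, against 7160 to 9120 CPM in WT SLC45a2-KO. Of 10 skeletal muscle markers 3 rose and 1 fell with CYP7a1-KO in WT, and 2 of 7 epidermal markers rose. Lower were 1 biliary, 1 heart muscle and 1 cartilage and bone marker. With TGR5-KO in WT, where amotl2a, amotl2b and ctgfb fell, 4 of 10 skeletal muscle markers fell and 0 of 13 hepatocyte markers passed. Over all tested genes 3.1% rose and 3.4% fell there. The part of tissue make-up in any of these results was not tested.

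Likeness over the 27 libraries was measured by Pearson's r of log2(CPM + 1), which mixes the differences between groups with those within them and is given as a description. Only tested genes with a standard symbol were ranked. Unnamed entries, names made from a clone or locus number, and repeats of a symbol were left out, so genes more alike may be among those. The genes most like amotl2b were amotl2a (r = 0.944), slc6a14 (r = 0.92), an amino acid transporter, cbln10 (r = 0.913), anxa4 (r = 0.907), which is also one of the biliary markers, and dap1b (r = 0.902). Among the other target genes, r with amotl2b was 0.722 for sdc4, 0.643 for cyr61, 0.317 for ajuba, -0.02 for ctgfb, -0.229 for lats2 and -0.589 for ctgfa. After group means were taken away, r with amotl2b was -0.183 for sdc4, 0.0933 for cyr61, -0.214 for ajuba, -0.289 for ctgfb, 0.231 for lats2 and -0.0946 for ctgfa. With amotl2a it was 0.574, below that of gfap (r = 0.713), xpnpep2 (r = 0.706), mrpl3 (r = 0.702), dhcr7 (r = 0.689) and eomesa (r = 0.67). The genes most like ctgfa in level were hhla2b.2 (r = 0.828), znf1104 (r = 0.794), syngr1a (r = 0.781), rbm47 (r = 0.78) and ctsh (r = 0.775). Within groups the genes most like ctgfa were klhl41b (r = 0.682), apobec2a (r = 0.663), sim1b (r = 0.663), akap12b (r = 0.649) and slf1 (r = 0.647), and of the other target genes ctgfb had the highest r, 0.38. For sdc4, added after its values were seen, the genes most like it in level were ppp1r15a (r = 0.96), mknk2b (r = 0.938), tnfaip3 (r = 0.937), pam (r = 0.936) and cbx7a (r = 0.929). Within groups they were others, rnf2 (r = 0.752), kyat3 (r = 0.738), timp2b (r = 0.732), thbs3a (r = 0.721) and ldhba (r = 0.664).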

How the data were processed

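Lexogen QuantSeq 3′ mRNA libraries were made from total RNA of pooled whole larvae, per the labels' protocols. The genome builds danRer10 and GRCz11 are named without a role, per the submitters' processing notes, and no source used here names the aligner or counting tool. The authors deposited raw read counts per gene for 27 libraries, and CPM values that equalled the deposited counts over their column total within 5e-04. From the counts, edgeR 4.0.16 in R 4.3.3 was run on the 15521 genes that its default filter on low counts left, with TMM scaling (factors 0.91 to 1.07) and a robust quasi-likelihood model of the 6 group means. P-values were adjusted by Benjamini-Hochberg within each comparison, with a threshold of 0.05, in 7 comparisons between 2 groups and 2 interactions. One spread per gene is thus shared by PY and WT. For yap1 an exact permutation test of mean CPM was used, both sides, adjusted over 7 tests. The script was tested on simulated counts. The 10 genes, the lists and the tests were chosen with earlier results of these data known. All 10 genes are reported in every comparison between 2 groups, and list genes are named where they passed in PY against WT with SLC45a2-KO alone, up to 4 per list by adjusted p, with exceptions stated. The smallest p of the exact test was 0.0079 with a PY group. Alternatives were DESeq2 1.42.0, RLE factors, no filter, only the groups compared, a replicate block, scaling without genes of over 1% of counts, and leaving out libraries. Overlaps of genes were read from GRCz12tu RefSeq, and no coordinates are given because builds differ. One further gene and the result that needs it are not reported here.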

Additional observations from a re-analysis of the deposited data

Results flagged for a closer look

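Among 53 sets of 4 or 5 libraries, 1 per gene and group, 6 held a library that stood far from the others by Dixon's test, which marks about 1 in 20 by chance. Of these, 5 belong to genes at or near 0 counts. Where all other libraries of a set were at 0, as for yap1 in WT and ctgfa in PY SLC45a2-KO, the mark was fixed. The 6 sets can thus not be read against that rate. Library 4 of PY SLC45a2-KO had 8.01 CPM of yap1, beside 2.31 CPM in the next library, and it also held the 1 ctgfa count of its group (0.276 CPM). In WT, yap1 was above 0 in 1 library of each group, at 0.231 CPM in WT TGR5-KO library 2, 0.76 CPM in WT CYP7a1-KO library 4 and 0.625 CPM in WT SLC45a2-KO library 3. Library 4 of WT SLC45a2-KO had 23.6 CPM of amotl2a, beside 17.4 CPM in the next library.

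The change by a knockout differed between PY and WT, by edgeR's interaction test, for ctgfb with TGR5-KO (1.07) and for sdc4 with TGR5-KO (-0.91) and with CYP7a1-KO (-1.63). Both sdc4 interactions share the PY SLC45a2-KO and WT SLC45a2-KO libraries.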

How the results depend on the processing

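In PY against WT, the calls of amotl2a, amotl2b, sdc4, cyr61 and ctgfb given in the report were kept under all 7 other settings and each left-out library. Those of ctgfa were kept too, but it passed the filter only through its WT libraries, so a difference was built in. The ajuba call and others that were lost or gained stand beside their results. With CYP7a1-KO in PY 1 gene was called, in place of 2, without libraries 1 and 2 of PY CYP7a1-KO. In a fit of the groups compared alone 2 were called with CYP7a1-KO in WT, in place of 1. For the CYP7a1-KO interaction 2 were called, in place of 1, with DESeq2, in that fit and without libraries 1 and 2 of PY CYP7a1-KO. Leaving out single libraries gave 1 to 3 calls for TGR5-KO in PY, 1 to 2 for CYP7a1-KO in PY and 1 to 2 for the CYP7a1-KO interaction. By edgeR with no filter the yap1 change was 4.04 on the log2 scale with SLC45a2-KO alone and 3.47 with TGR5-KO in PY against WT, and both passed. With CYP7a1-KO the yap1 change in that fit was 2.06 and did not pass (adjusted p = 0.2).

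Some changes turned sign, and none of these was a call. The amotl2a interaction with CYP7a1-KO was 0.01, and -0.02 with DESeq2, with RLE factors and without libraries 1 and 2 of PY CYP7a1-KO, -0.01 without abundant genes, and -0.15 to 0.12 without single libraries. Without single libraries ctgfa ran from -1.68 to 0.0 and ajuba from -0.34 to 0.12 with TGR5-KO in PY. With TGR5-KO in WT lats2 ran from -0.11 to 0.81, and with CYP7a1-KO in WT amotl2a ran from -0.26 to 0.02 and ctgfa from -0.03 to 1.18. The TGR5-KO interaction ran from -0.75 to 1.61 for ctgfa and from -0.11 to 0.88 for lats2. The yap1 difference in WT ran from -0.156 to 0.0576 CPM with TGR5-KO and from -0.156 to 0.19 CPM with CYP7a1-KO. The cause of these shifts was not tested, and each rests on fewer samples or another scaling.

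Over the whole table, fits of the compared groups alone called 1355 genes for CYP7a1-KO in PY, against 2079, and 1900 and 2993 for TGR5-KO and CYP7a1-KO in WT, against 1008 and 1804. Replicate numbers did not pair libraries (correlation of same-numbered libraries -0.128 to 0.0543 over 30 pairs). With the replicate number as a block the same number of the 8 genes was called in each comparison, 6, 5 and 5 in PY against WT, 2 and 2 in PY, 3 and 1 in WT, and 2 and 1 for the interactions. For yap1 with SLC45a2-KO alone, signs were exchanged over the 4 same-numbered pairs of libraries, which leaves out PY library 5. The difference was then 3.37 CPM (exact sign-exchange p = 0.12). That p is the smallest that 4 pairs allow, so this test could not pass. Low counts limit what can be said of yap1, ctgfa, lats2 and ajuba.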
